A study of Mus musculus with 8 samples.

Results

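N6-methyladenosine (m6A) enrichment was compared between growing and differentiating mouse myoblasts at 5976 merged peaks, the peaks that were listed in every one of the 4 MeRIP-seq peak lists. Lines of the lists that shared at least 1 base of exon on one strand were merged, which gave 19516 merged peaks on 9153 gene symbols, and a merged peak was kept where each list held at least 1 of its lines. The kept peaks lay on 4672 gene symbols, and the other 13540 merged peaks were missing from at least 1 list. Their strength in a list was the highest fold enrichment of immunoprecipitated over input RNA there, on the log2 scale, with each list centred on its own median over the kept peaks. Growth medium (GM) cells were C2C12 myoblasts, an immortalized mouse line, taken at 50% confluence in medium with 10% fetal bovine serum. The 3d DM cells were C2C12 myoblasts that had passed 90% confluence and then spent 3 days in 2% horse serum, in which they fuse into myotubes. Both states were grown on collagen and carried no other treatment, and each had 2 libraries precipitated with an antibody against m6A and 2 input libraries. The sources used here do not say whether the 2 libraries of a state came from separate cultures, so the spread between them may be technical.

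m6A is the most common internal modification of messenger RNA. It is written during transcription by a complex around METTL3 and METTL14, mostly on the adenosine of a short motif whose best known form is GGAC, and it gathers in long internal exons and near stop codons. YTH domain proteins bind it and mark many transcripts for decay, and FTO and ALKBH5 can remove it. In muscle precursors it has been studied as one of the layers that act as dividing cells leave the cell cycle and differentiate.

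The letters under some of the peaks with the largest differences, and under peaks of 2 muscle transcripts, are shown as examples of sequence within these peaks. Each line holds 28 bases of the GRCm38.p6 (mm10) genome from RefSeq, 5′ to 3′ on the strand of the gene, around the GGAC nearest to the middle of the stretch that all 4 lists covered, and the capitals mark GGAC. The first 4 lines belong to peaks that were lower in 3d DM, the next 4 to peaks that were higher, and the last 2 to the sarcomere transcripts Myh3 and Synpo2. A match is only a run of letters and not a mapped modified base. The printed line was centred 167.5 bases from that middle for Nucks1, 103.5 for Zfp408 and 65.5 for Gen1, and at most 31.5 for the others.
Gen1, chr12:11239601-11239628, minus strand: aagtgagttccaGGACagcccgggctac
Zfp408, chr2:91645583-91645610, minus strand: ggcaacctccaaGGACacttgcggctac
Kif3c, chr12:3366073-3366100, plus strand: gattctgaccatGGACgtgaaactgggc
Mief2, chr11:60731159-60731186, plus strand: ggctccaggcagGGACtgctgagcacgt
Nucks1, chr1:131931244-131931271, plus strand: gaaacctctgtaGGACacggtttgggct
Mfap1b, chr2:121461248-121461275, minus strand: ctgggatcgccaGGACtacacagagaaa
Lyn, chr4:3790523-3790550, plus strand: gggcacacagagGGACcactgctgaact
Xylt2, chr11:94664569-94664596, minus strand: actcaggtagcaGGACcccagccagcac
Myh3, chr11:67096971-67096998, plus strand: aggggaggtggaGGACctgatggtggat
Synpo2, chr3:123111553-123111580, minus strand: ccaaaggagaatGGACacaaagtaacat
Of the 12 peaks named below for each direction, such a window in 1 exon was obtained for 9 of those that were lower and 6 of those that were higher. Not every one of the other peaks was searched, so a peak without a window was not shown to lack GGAC. These counts therefore do not compare the directions.

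The kept peaks were the stronger part of the lists. Their median fold enrichment over the 4 lists was 4.91, against 3.87 for merged peaks found in 3 lists, 3.59 in 2 lists and 3.81 in 1 list. The median fold of the kept peaks was 5.44 and 4.82 in the GM lists and 4.50 and 5.01 in the 3d DM lists. On the log2 scale this was 2.36 ± 0.12 (SD, n = 2) in GM and 2.25 ± 0.11 (SD, n = 2) in 3d DM, a difference of -0.11 that was no larger than the spread between lists of a state (two-sided exact permutation test, p = 0.667, where 2 lists against 2 cannot go under 0.33). Centring removes this common shift from every value that follows. Read depth is not given in the peak lists, so no counting error can be attached to a fold.

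Lists of one state differed from each other about as much as lists of different states. The SD of the difference in centred log2 enrichment over the 5976 peaks was 0.76 between the GM lists and 0.75 between the 3d DM lists. Between states it was 0.68 for the first replicates and 0.75 for the second, as the histograms of both kinds of difference show. Pearson correlations of log2 enrichment across peaks were 0.63 within GM and 0.60 within 3d DM, and 0.59 to 0.69 between lists of different states (n = 5976 peaks of shared transcripts, given as a description).

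**Figure D1:**
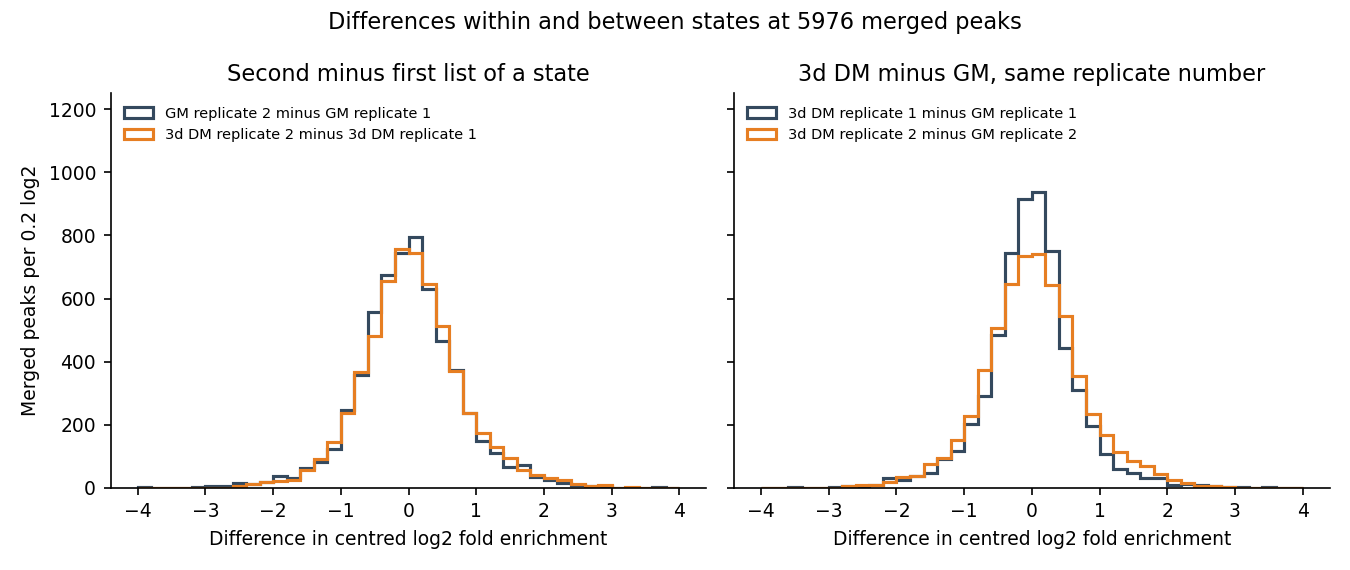
Histograms of the difference in centred log2 fold enrichment (horizontal axis) over 5976 merged peaks, counted in bins of 0.2 log2 (vertical axis), between the 2 lists of one state (left) and between 3d DM and GM lists of one replicate number (right). All 4 curves are centred near 0, with SDs of 0.76 and 0.75 within a state and of 0.68 and 0.75 between states, and values beyond 4 are drawn in the last bins.

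No merged peak gained or lost enrichment at an adjusted p under 0.05 (limma with an intensity trend, Benjamini-Hochberg adjustment over 5976 peaks, 0 higher, which is 0%, and 0 lower, 0%). The smallest adjusted p was 0.997. At an unadjusted p under 0.05 there were 231 peaks, 3.87% of those tested, of which 143 (2.39%) were higher and 88 (1.47%) lower in 3d DM. That balance depended on the centring, since 81 were higher and 132 lower without it, and 112 and 114 when each list was centred on all of its peaks. Both 3d DM values lay above both GM values at 982 peaks (16.4%) and below both at 939 (15.7%), against 9.22% and 21.7% without centring and 13.1% and 19% with centring on all peaks of a list. Leaving out 1 list changed the count past the adjusted threshold. Without GM replicate 1, 2 peaks were higher, on Srp19 and Gtf2b, and 7 were lower, and without GM replicate 2 there were 0 higher and 8 lower, among them Casq2 and Cnp. In each of these calls the GM list that remained held a value at least as far from 3d DM as the one left out.

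The differences themselves were mostly small against their error. They had a median of 0.00, quartiles of -0.29 and 0.31, and an SD of 0.51, and 4325 peaks (72.4%) lay within 0.5 log2 of no difference. A difference of over 1 log2 was seen at 196 peaks upward and 160 downward. The median SE was 0.45 and the median half-width of the 95% interval was 1.00 log2, so for a typical peak a change of less than 2-fold could not be told from none with 2 lists a state.

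The peaks with the largest differences had a mean above the list medians in their stronger state, while single lists of the 2 states could lie close together. Ywhae had a fold of 9.19 in both GM replicate 1 and 3d DM replicate 2, and these values were apart only after centring. None passed the test after adjustment, and each was chosen for its size among peaks whose GM and 3d DM values did not overlap, so the differences are a description. The plot of the 12 largest in each direction shows all 4 folds of each.

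**Figure D2:**
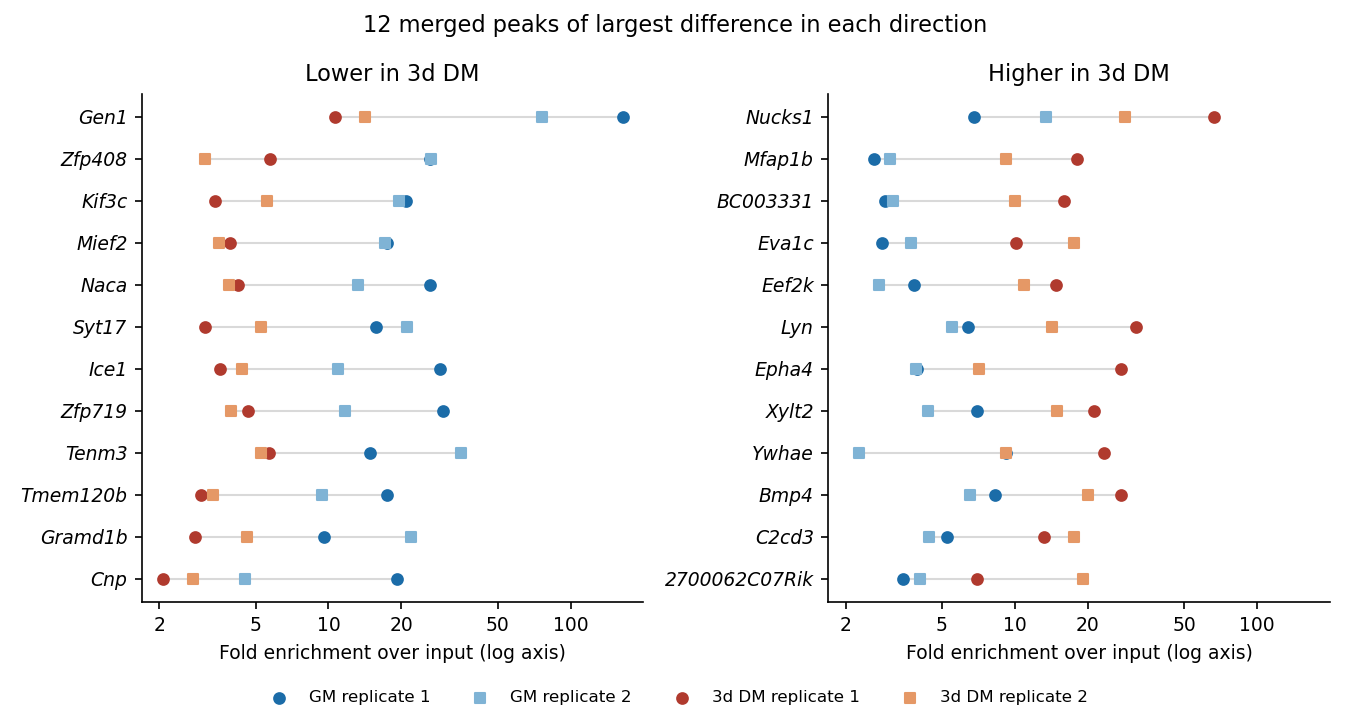
Fold enrichment over input (horizontal axis, log scale) in the 2 GM lists (blue) and the 2 3d DM lists (red and orange) for the 12 merged peaks with the largest difference downward (left) and upward (right), 1 row per peak, named by gene, with no error bars because single lists are drawn. Gen1 spans the widest range, from 164 and 75.9 in GM to 10.6 and 14.2 in 3d DM.

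Among the peaks that were lower in 3d DM, the largest difference was on Gen1, which encodes a nuclease that resolves DNA recombination intermediates, in its 3′ UTR (chr12:11239249-11239728, minus strand). Its fold was 164 and 75.9 in GM against 10.6 and 14.2 in 3d DM, a difference in centred log2 enrichment of -3.08 (SE 0.86). The first GM fold was the highest of its list among the kept peaks, and both 3d DM folds were far lower, yet still above the median of their lists. Its RNA fell as well, with normalised input values of 196 and 223 in GM against 25.7 and 34.8 in 3d DM. The 101 bases at the middle of this peak share a run of 20 bases with transcripts of 395 gene names, its own included, so reads from other genes may have been placed there. How far they moved the value was not tested.

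Zfp408, a zinc finger gene, had folds of 26.2 and 26.6 in GM against 5.73 and 3.09 in 3d DM in its coding sequence (chr2:91645014-91645732, minus strand), a difference of -2.54 (SE 0.59). The zinc finger gene Zfp719 went the same way, with folds of 29.7 and 11.7 in GM against 4.66 and 3.97 in 3d DM. RNA of neither gene passed its test, with log2 differences of 0.68 and -0.02. The 2 GM values of Zfp408 were nearly equal, while those of Zfp719 were 29.7 and 11.7, as far apart as many of the differences between states.

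Kif3c, a kinesin motor subunit, had folds of 21 and 19.6 in GM against 3.39 and 5.57 in 3d DM in its coding sequence (chr12:3365884-3366925, plus strand), with RNA at 355 and 224 in GM against 294 and 297 in 3d DM. Its enrichment difference was -2.11 (SE 0.53) beside an RNA difference of 0.07. Mief2, an adaptor for mitochondrial fission, had folds of 17.5 and 17.2 in GM against 3.93 and 3.53 in 3d DM (chr11:60731082-60731587, plus strand). Its RNA rose, with values of 119 and 66.2 in GM against 281 and 398 in 3d DM (log2 difference 1.90, limma adjusted p = 9.30e-04). Enrichment and RNA thus moved in opposite directions on Mief2, whereas the RNA values of Kif3c overlapped between states. A second kept peak of Kif3c was at 0.36, and the difference of the first was -1.11 with the median over the lines of a list in place of the highest.

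The remaining 7 peaks of this group were on Naca, the alpha subunit of a complex that meets nascent chains at the ribosome, Syt17, a synaptotagmin, Ice1, a subunit of the little elongation complex, Tenm3, a teneurin adhesion protein, Tmem120b, Gramd1b, a carrier of cholesterol in the endoplasmic reticulum, and Cnp, a phosphodiesterase best known from myelin. Their differences ran from -2.09 for Naca to -1.86 for Cnp. Naca had folds of 26.2 and 13.3 in GM against 4.24 and 3.9 in 3d DM, with RNA at 7440.2 and 6366 in GM against 10488 and 11639 in 3d DM. These RNA values are of the whole gene and do not tell which Naca transcript carried the peak. Cnp had folds of 19.2 and 4.54 in GM against 2.07 and 2.76 in 3d DM, and its second GM value was closer to the 3d DM values than to the first GM value. With the median over lines Naca was at -0.97 and Ice1 at -1.12. Of the 12, Mief2 and Gramd1b had RNA that rose, Gen1 had RNA that fell, and the other 9 did not pass the RNA test. Over all tested genes, 7.01% rose and 9.96% fell. Gramd1b lay close to the threshold (limma adjusted p = 0.0456).

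Among the peaks that were higher in 3d DM, Nucks1, a chromatin-associated phosphoprotein, had folds of 6.78 and 13.4 in GM against 66.7 and 28.4 in 3d DM (chr1:131910564-131931729, plus strand), a difference of 2.30 (SE 0.79). Its peak spanned coding sequence and 3′ UTR, and its RNA fell, with values of 2891 and 2886 in GM against 1169 and 1518 in 3d DM (limma adjusted p = 0.0447). Both 3d DM folds were more than 2 times the higher GM fold. Eva1c, a membrane protein, showed the same pairing, with folds of 2.83 and 3.74 in GM against 10.1 and 17.5 in 3d DM and RNA at 87 and 153 in GM against 16.3 and 45.8 in 3d DM.

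Mfap1b, which encodes a spliceosome-associated protein, had folds of 2.62 and 3.05 in GM against 18 and 9.19 in 3d DM (chr2:121460949-121461336, minus strand), a difference of 2.30 (SE 0.51). Its RNA was 723 and 614 in GM against 848 and 1183 in 3d DM and did not pass its test. The middle of this peak shares 20 bases with transcripts of 68 gene names, and Mfap1a is a near-identical copy, so its value is uncertain. BC003331 had folds of 2.9 and 3.13 in GM against 15.9 and 10.0 in 3d DM, with both GM values close together and both 3d DM values at least 3 times as high.

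Eef2k, the kinase that slows translation elongation, had folds of 3.84 and 2.76 in GM against 14.8 and 10.9 in 3d DM. Its difference of 2.07 became 0.75 with the median over lines and 0.40 when merging needed a larger overlap. Lyn, a Src family kinase, had folds of 6.41 and 5.48 in GM against 31.7 and 14.2 in 3d DM. Epha4, an ephrin receptor, had folds of 3.94 and 3.91 in GM against 27.5 and 7.1 in 3d DM, so that its first 3d DM value stood far above the rest and its second less than 2 times above GM. Bmp4, a secreted ligand of the TGF-beta family, had folds of 8.31 and 6.52 in GM against 27.5 and 20 in 3d DM (chr14:46383520-46384478, minus strand), a difference of 1.78 (SE 0.60), with RNA at 63.2 and 35.1 in GM against 105 and 118 in 3d DM. Its RNA difference of 1.22 log2 did not pass the test. Xylt2, which starts proteoglycan chains, Ywhae, a phosphoserine-binding adaptor, C2cd3, a centriole protein, and 2700062C07Rik completed the 12, with differences of 1.80, 1.79, 1.77 and 1.74. With the median over lines BC003331 was at 1.32 and Ywhae at 1.03. Of the 12, Nucks1, Eva1c and 2700062C07Rik had RNA that fell and the rest did not pass the RNA test. Over all tested genes, 7.01% rose and 9.96% fell. Nucks1 lay close to the threshold, and 2700062C07Rik had a limma adjusted p of 0.0275.

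RNA of the same genes was then set beside enrichment. In the deposited table of normalised input values, 11406 genes were tested, of which 800 rose (7.01%) and 1136 fell (9.96%) in 3d DM at an adjusted p under 0.05 (limma on log2(value + 1)). The median RNA difference over these genes was -0.22, and after rescaling by median-of-ratios factors it was -0.02 with 1340 genes rising and 1325 falling. Of the 4627 tested genes with a kept peak, 245 rose and 309 fell, or 567 and 435 after rescaling. The standard errors followed the intensity trend and not each gene's own replicates, so these p-values do not measure a gene's replicate spread. Leaving out 1 library lowered these counts, to 152 rising and 98 falling without GM replicate 1, 75 and 78 without GM replicate 2, 25 and 11 without 3d DM replicate 1, and 40 and 130 without 3d DM replicate 2. Myotube markers rose at 10 of 10 genes and markers of proliferating myoblasts fell at 8 of 9, while the summed values of adipocyte, endothelial, immune and neuronal markers were at most 134 in any library.

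Enrichment tended to be lower where RNA rose and higher where RNA fell. The 336 peaks on genes whose RNA rose had a median enrichment difference of -0.26, with 251 lower and 85 higher in 3d DM. Their median centred enrichment was 0.13 and 0.07 in the GM lists and -0.19 and -0.13 in the 3d DM lists. These list medians did not overlap between states, while the values of many single peaks did. The 356 peaks on genes whose RNA fell had a median of 0.24, with 243 higher and 113 lower, and medians of -0.06 and -0.04 in GM against 0.11 and 0.18 in 3d DM. The 5232 peaks on genes whose RNA did not pass had a median of 0.01. Values below both GM values were found at 107 peaks (31.8%) of the first class, against 15.7% of all peaks, and values above both at 114 peaks (32.0%) of the second, against 16.4% of all.

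The relation was graded over the whole range of RNA change, as the box plot by RNA difference shows. Median enrichment differences were 0.41 where RNA was lower by more than 2 log2, 0.20 between -2 and -1, 0.05 between -1 and -0.25, close to 0 between -0.25 and 0.25, -0.06 up to 1, -0.21 up to 2, and -0.37 above 2. Within each bin the differences spread by more than these medians, and at RNA rises above 2 log2, 23 of 117 peaks were still higher in 3d DM. Across all 5924 peaks with a tested gene, Pearson's r was -0.23, which describes peaks that share genes and libraries and is not a test.

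**Figure D3:**
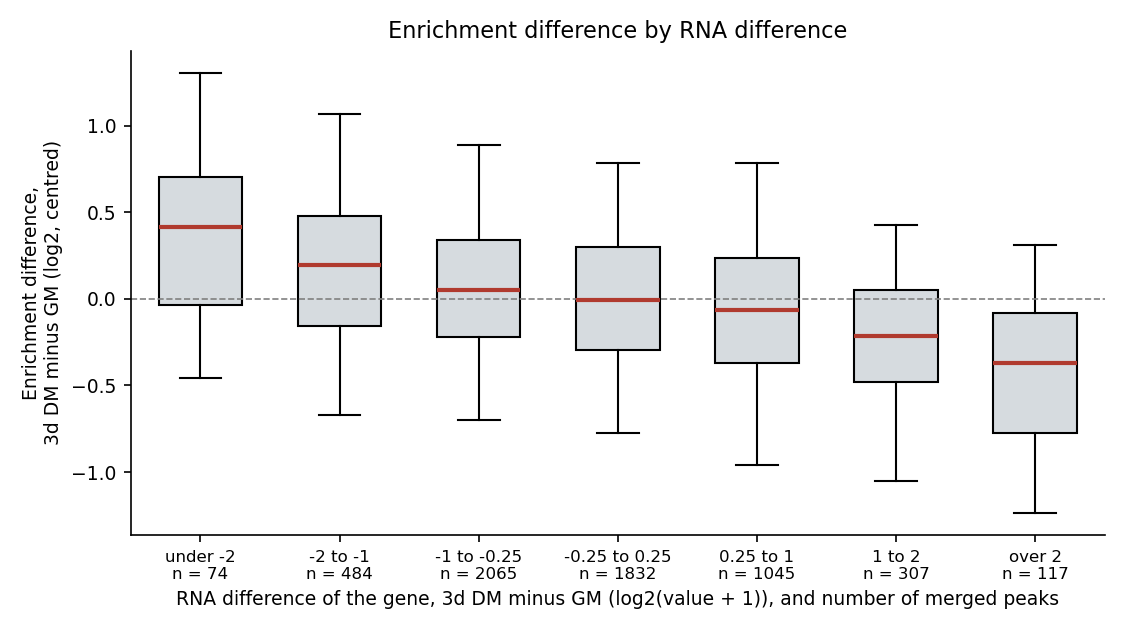
Enrichment difference between 3d DM and GM (vertical axis, log2, centred) of merged peaks grouped by the RNA difference of their gene (horizontal axis, log2(value + 1), with the number of peaks below each group); boxes give the quartiles, red lines the medians and whiskers the percentiles at 5 and 95. Medians go down from 0.41 for the 74 peaks at the left to -0.37 for the 117 peaks at the right, with boxes that overlap between neighbours.

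The input libraries are both the denominator of the enrichment and the source of the RNA values, so the 2 measures are not independent. The part of this in the relation was not tested.

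The 20 genes with a kept peak and the largest RNA rise were mostly genes of the contractile apparatus, and they were picked after the values were seen. Of their 20 peaks, 18 were lower in 3d DM, with a median of -0.83. Both 3d DM values lay below both GM values at 11 (55%), against 15.7% of all peaks. Their median centred enrichment was 1.17 in GM replicate 1, -0.07 in GM replicate 2, and -0.23 and -0.18 in 3d DM, so most of the distance came from GM replicate 1. That library also stood apart in RNA, with a summed value of 10 myotube markers of 9043 against 2659.7 in GM replicate 2 and 119767 and 161546 in 3d DM, and the part of this in the enrichment was not tested. Casq2, the calcium-binding protein of the sarcoplasmic reticulum, showed this most, with folds of 46.4 and 2.93 in GM against 3.25 and 2.77 in 3d DM. Gprc5c, an orphan receptor outside the muscle lists, had folds of 10.5 and 12.5 in GM against 4.04 and 5.01 in 3d DM, where both GM values were high. The exceptions were Mybph, a myosin-binding protein, at 0.07 and Adora1, an adenosine receptor, at 0.11. Those peaks lie on top of each other on opposite strands of chr1, and whether the peak caller kept strand is not stated in the sources used here. The reads under them may therefore be the same.

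The 20 genes with the largest RNA fall had 23 kept peaks, of which 16 were higher in 3d DM and 7 lower, with a median of 0.24. Both 3d DM values lay above both GM values at 7 (30.4%) and below both at 3 (13.0%), against 16.4% and 15.7% of all peaks. Hmga2, a chromatin architectural factor of growing cells, had folds of 4.84 and 2.59 in GM against 3.7 and 20.9 in 3d DM, so that 1 list set its difference of 1.42. Hmgb2, a chromatin protein of dividing cells, had folds of 4.67 and 4.67 in GM against 11.6 and 7.2 in 3d DM and RNA at 1605 and 1742 in GM against 194 and 318 in 3d DM. Hmgb2 values did not overlap between states, but the middle of its peak shares 20 bases with transcripts of 55 gene names. Ube2c, a ubiquitin-conjugating enzyme of mitotic exit, had 2 kept peaks that went apart, at -0.63 and 0.89. The lower one reaches into the Tnnc2 gene on the other strand, and the middle of the higher one shares 20 bases with transcripts of 399 gene names. Neither should be read as a difference within Ube2c alone.

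In the sarcomere and contraction list RNA rose at most genes, and 25 of 34 peaks had a lower mean enrichment in 3d DM, of which none passed the test. The 34 kept peaks lay on 23 genes, and RNA of 18 of the 23 rose and of 0 fell, against 7.01% and 9.96% of all tested genes, with a median RNA difference of 3.32. Their median enrichment difference was -0.38 against 0.00 for all peaks, 9 peaks were higher in 3d DM, and 14 (41.2%) lay below both GM values and 4 (11.8%) above, against 15.7% and 16.4% of all peaks. Median centred enrichment of the list was 0.52 and 0.14 in GM against 0.02 and -0.08 in 3d DM. Without GM replicate 1, whose myotube markers were more than 3 times those of GM replicate 2, the list's median was -0.17.

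Troponins were lower at each of their kept peaks. Tnnt3, the fast troponin T that anchors the troponin complex to tropomyosin, had folds of 19.2 and 17.2 in GM against 4.9 and 7.93 in 3d DM, a difference of -1.43 (SE 0.55) with a 95% interval of -2.67 to -0.20, while its RNA went from 597 and 111 in GM to 13508 and 12977 in 3d DM. Both GM folds were far above both 3d DM folds. The interval was not adjusted for the number of peaks, and the Tnnt3 peak did not pass the test (limma adjusted p = 0.997). Tnnt1, the slow form, had folds of 12.2 and 6.33 in GM against 4.47 and 4.53 in 3d DM, and Tnnc1, which binds calcium, had 6.12 and 2.27 in GM against 1.74 and 2.27 in 3d DM. In Tnni1 and Tnnc2 the differences were -0.67 and -0.60, and in Tnnt2 and Tnni2, which were not in the list, -0.72 and -0.65. After centring, both 3d DM values lay below both GM values at each of these 7 peaks, against 15.7% of all peaks, and RNA of each gene rose. The separation was narrow at some. In GM replicate 2 and 3d DM replicate 2 the folds were 2.27 and 2.27 for Tnnc1 and 2.55 and 2.51 for Tnni2. GM replicate 1 was the higher GM list at Tnnt1, Tnnc1, Tnni1, Tnnc2 and Tnni2. The Tnnc2 peak spans part of the Ube2c gene on the other strand.

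Myosin heavy chains, the motor proteins of the thick filament, were less even. Myh3, the embryonic form, had folds of 21.9 and 6.87 in GM against 4.81 and 4.72 in 3d DM, a difference of -1.25 (SE 0.58), with RNA at 1068 and 273 in GM against 33485 and 51674 in 3d DM. Its first GM list stood alone, and the second lay closer to the 3d DM lists than to the first. Myh1 had folds of 21 and 12.5 in GM against 4.29 and 17.5 in 3d DM, where the second 3d DM list was as high as GM, and Myh2 had 9.62 and 7.04 in GM against 6.35 and 6.31 in 3d DM. The middle of the Myh3 peak held no run of 20 bases found in another gene name, while those of Myh1 and Myh2 held runs found in 5 gene names, their own included, so reads of Myh1 and Myh2 may have come from other heavy chains. The nonmuscle forms Myh9 and Myh10, whose RNA did not pass the test, had differences of 0.03 to 0.37 over the 3 peaks of Myh9 and -0.21 for Myh10.

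Synpo2, a Z-disc actin-binding protein, had folds of 7.37 and 11.3 in GM against 3.78 and 4.74 in 3d DM in its 3′ UTR, with RNA at 225 and 164 in GM against 1303 and 1895 in 3d DM, while its coding sequence peak had a difference of -0.17. Xirp1, which binds actin filaments, had 3 peaks with differences of -1.07, -0.18 and 0.21. The 5 peaks of Ttn, the giant spring of the sarcomere, lay between -0.77 and 0.13. Myom2 of the M-band was at -1.17 and Ablim1, an actin-binding protein, at -1.09. Lmod2, Klhl41 and Lmod3, thin filament proteins outside the list that were picked after their values were seen, had -1.17, -0.93 and -1.06, with overlap between the states in the latter 2. The estimates thus varied between peaks of one transcript, but none of these peaks passed the test and no difference between peaks was tested.

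Of the 9 peaks of the list that were higher in 3d DM, 6 were on genes whose RNA did not pass its test. Utrn, the dystrophin relative at the membrane, had folds of 3.5 and 3.52 in GM against 7.36 and 5.85 in 3d DM at one peak and 2.57 and 3.1 in GM against 4.41 and 3.81 in 3d DM at the other, with RNA at 1762 and 1319.7 in GM against 2415 and 2656 in 3d DM. Nexn, a Z-disc protein, had a difference of 0.58. Des, the muscle intermediate filament, whose RNA rose, had differences of -0.04 and 0.40.

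**Figure D4:**
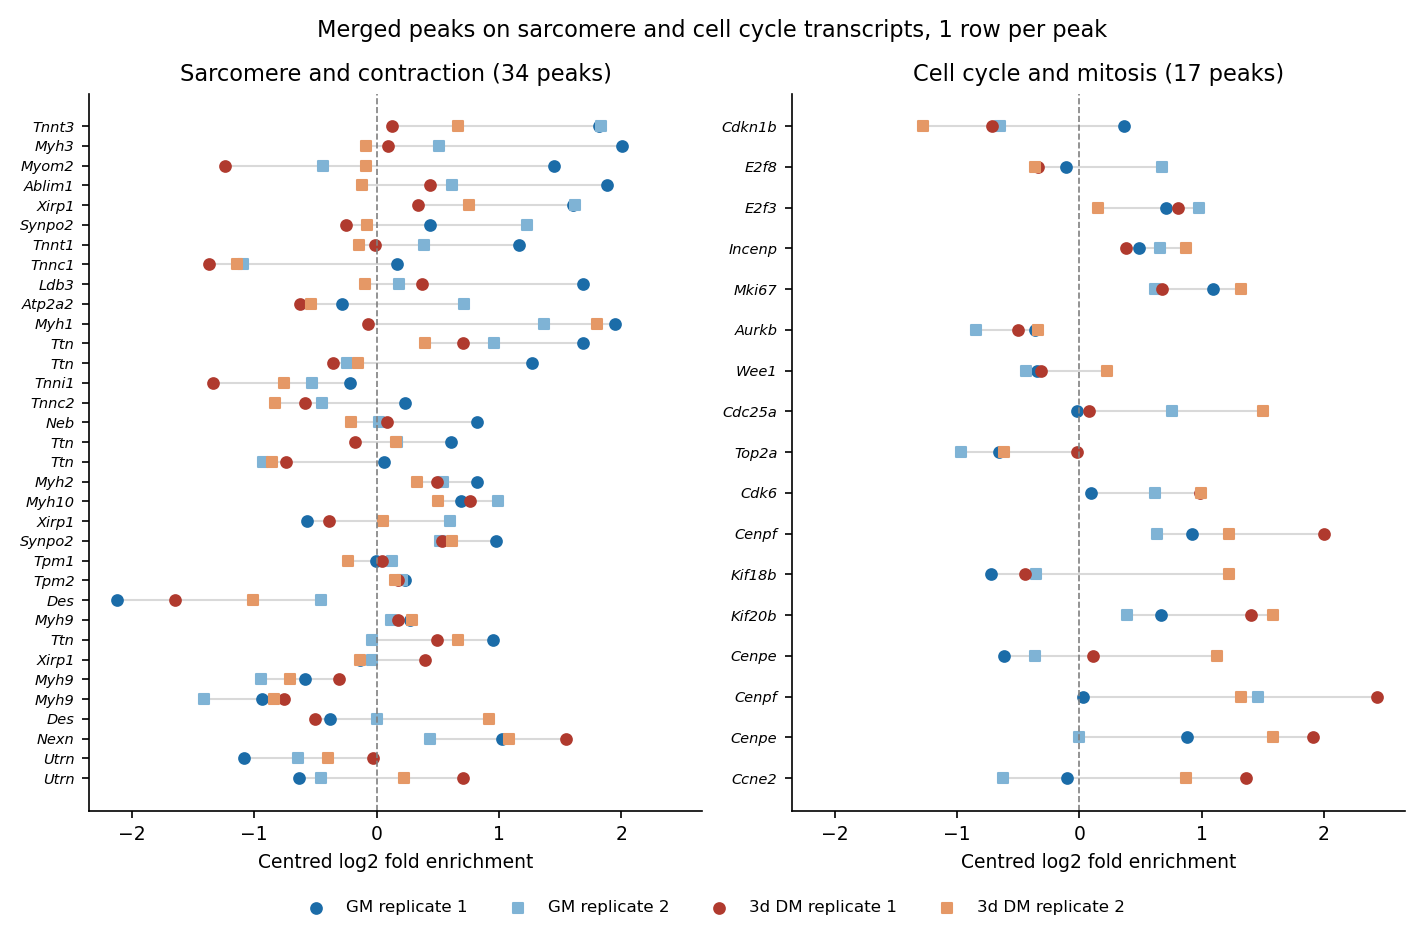
Centred log2 fold enrichment (horizontal axis) in the 2 GM lists (blue) and the 2 3d DM lists (red and orange) for 34 peaks on sarcomere transcripts (left) and 17 on cell cycle transcripts (right), 1 row per peak, ordered by the difference between states, with no error bars because single lists are drawn. GM replicate 1 lies furthest right in many sarcomere rows, and 3d DM lists lie to the right in most cell cycle rows, while many rows overlap between states.

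In the cell cycle and mitosis list RNA fell at most genes, and 14 of 17 peaks had a higher mean enrichment in 3d DM, of which none passed the test. The list held 17 kept peaks on 15 genes, and RNA of 12 of the 15 fell and of 0 rose, against 9.96% and 7.01% of all tested genes, with a median RNA difference of -2.60. The median enrichment difference was 0.50, 3 peaks were lower in 3d DM, and 8 (47.1%) lay above both GM values and 2 (11.8%) below, against 16.4% and 15.7% of all peaks. Median centred enrichment of the list was 0.03 and 0.39 in GM against 0.38 and 1.00 in 3d DM, so the medians of GM replicate 2 and 3d DM replicate 1 were nearly equal. Without 3d DM replicate 2 the list's median was 0.10.

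Cenpe, a kinesin of the kinetochore, had 2 kept peaks in its coding sequence, with folds of 3.54 and 3.76 in GM against 4.87 and 10.9 in 3d DM at one and 10.0 and 4.82 in GM against 16.9 and 15 in 3d DM at the other. Their differences were 1.11 (SE 0.47) and 1.31 (SE 0.58), while RNA went from 1598 and 1612 in GM to 175 and 296 in 3d DM. Cenpf, a kinetochore-associated protein, had differences of 0.83 and 1.13 at its 2 peaks. Ccne2, a cyclin of entry into DNA synthesis, had folds of 5.07 and 3.13 in GM against 11.6 and 9.19 in 3d DM in its 3′ UTR, a difference of 1.48 (SE 0.47) with a 95% interval of 0.43 to 2.53. That interval was not adjusted for the number of peaks, and the Ccne2 peak did not pass the test (limma adjusted p = 0.997). Its RNA was 122 and 196 in GM against 18.5 and 36.6 in 3d DM.

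Not every falling transcript followed. Mki67, the proliferation marker, had folds of 11.6 and 7.4 in GM against 7.17 and 12.5 in 3d DM, and Incenp, a subunit of the chromosomal passenger complex, had 7.63 and 7.61 in GM against 5.87 and 9.19 in 3d DM, with values that overlapped in both genes although their RNA fell, with log2 differences of -2.63 and -2.60. E2f8, a repressor of the E2F family, had folds of 5.05 and 7.71 in GM against 3.56 and 3.9 in 3d DM, lower in 3d DM with RNA that fell. Cdkn1b, an inhibitor of cyclin-dependent kinases, had folds of 7 and 3.08 in GM against 2.74 and 2.07 in 3d DM, with RNA at 722 and 448 in GM against 387 and 586 in 3d DM that did not pass its test.

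DNA replication and repair genes had 11 kept peaks on 8 genes, a median of 0.15, and RNA that fell at 6 of 8, against 9.96% of all tested genes. Rfc1, the large subunit of the clamp loader, had 3 peaks at -0.63, 0.03 and 0.98. Its extreme peaks had folds of 6.78 and 4.54 in GM against 2.55 and 4.31 in 3d DM and of 3.5 and 2.58 in GM against 4.85 and 6.26 in 3d DM, each without overlap between states and in opposite directions. Pcna, the sliding clamp, had folds of 2.43 and 1.78 in GM against 2.71 and 2.28 in 3d DM, and Rrm2, a subunit of ribonucleotide reductase, had 1.93 and 1.5 in GM against 1.5 and 2.51 in 3d DM. Mcm3, a helicase subunit whose RNA fell with a log2 difference of -3.06, had an enrichment difference of -0.45.

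Myogenic regulators and fusion genes had medians close to that of all peaks. The 16 peaks on 14 regulator genes had a median of 0.01 with 8 higher and 8 lower. RNA of 4 of these genes rose and of 1 fell, against 7.01% and 9.96% of all tested genes. Myod1, the master regulator of myogenesis, had folds of 3.36 and 1.75 in GM against 2.55 and 2.95 in 3d DM, with overlapping states. Tead4, a partner of the Hippo pathway, had folds of 4.87 and 6.65 in GM against 6.02 and 7.45 in 3d DM while its RNA rose by 2.28 log2. Tcf4, an E protein, had the largest difference, 0.97, at a peak whose middle shares 20 bases with transcripts of 216 gene names. Smarcd3, a muscle subunit of the SWI/SNF remodeller, was at 0.64, and Vgll2, a Tead cofactor, was at -0.91. The sign of the last 2 values turned when 1 list was left out.

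The 20 peaks on 13 fusion and membrane genes had a median of 0.01. RNA of 4 of these genes rose and of 0 fell, against 7.01% and 9.96% of all tested genes. Mymx, a micropeptide needed for fusion, had folds of 12.2 and 4.27 in GM against 2.47 and 4.96 in 3d DM as its RNA went from 68.8 and 9.06 in GM against 603 and 1327 in 3d DM. Dock1, an exchange factor for Rac, had folds of 3.37 and 2.77 in GM against 7.76 and 7.1 in 3d DM, a difference of 1.39 (SE 0.40), at a peak with bases shared by 87 gene names. Cdh2, the neural cadherin, had 2 peaks at -1.19 and 0.12. Itgb1, the beta subunit of many integrins, had 3 peaks at -0.03, 0.41 and 0.44.

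Transcripts of the m6A machinery carried 24 kept peaks on 19 genes, with a median of -0.17, or -0.085 without GM replicate 2. There were 11 higher and 13 lower in 3d DM. Of the 24, 4 (16.7%) lay above both GM values and 7 (29.2%) below, against 16.4% and 15.7% of all peaks. RNA of 1 gene, Fmr1, fell and of 0 rose, against 9.96% and 7.01% of all tested genes. Peaks of the cytoplasmic readers did not pass the test. Ythdf3 had folds of 13.9 and 6.5 in GM against 5.89 and 3.76 in 3d DM, Ythdf1 had 4.59 and 4.46 in GM against 3.17 and 2.47 in 3d DM and Ythdf2 had 6.62 and 9.24 in GM against 5.82 and 4.04 in 3d DM, with overlap in Ythdf2. Ythdc1, the nuclear reader, had a coding sequence peak at -0.89 and a peak into the 3′ UTR at 0.43. Their RNA differed by at most 0.33 log2 in size.

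Of the writer complex, Zc3h13 had peaks at -0.54 and 0.65, Virma was at 0.01, Cbll1 at -0.20 and Wtap at 0.77. Wtap had folds of 7.2 and 5.32 in GM against 22.2 and 4.29 in 3d DM, where the first 3d DM list stood alone. Alkbh5, an eraser, had peaks at -0.36 and 0.13, and Fto, the other eraser, had peaks at -0.25 and -0.13. Hnrnpa2b1, an RNA-binding protein, had the largest difference of the list, with folds of 2.84 and 2.56 in GM against 7.05 and 4.35 in 3d DM, a difference of 1.15 (SE 0.40), and RNA at 7044 and 7755 in GM against 2781 and 5342 in 3d DM. Rbmx, a related protein, had a difference of 0.65.

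Genes of histone and DNA modification carried many peaks, 90 on 35 genes, and their median was -0.13, with 37 higher and 53 lower. Of the 90, 16 (17.8%) lay above both GM values and 17 (18.9%) below, against 16.4% and 15.7% of all peaks. RNA of 1 gene rose and of 1 fell, against 7.01% and 9.96% of all tested genes. The methyltransferase genes Setd5, Nsd2 and Nsd1 each had a peak that was higher in 3d DM, with folds of 3.03 and 2.25 in GM against 5.6 and 7.52 in 3d DM for Setd5, 2.48 and 2.39 in GM against 3.75 and 7.1 in 3d DM for Nsd2 and 3.67 and 3.62 in GM against 6.53 and 14.2 in 3d DM for Nsd1. Kmt2d, a writer of enhancer methylation, had the lowest difference of the list, with folds of 20.6 and 13.3 in GM against 4.5 and 6.26 in 3d DM, a difference of -1.53 (SE 0.53). In these 4 genes RNA did not pass its test and the named peak did not overlap between states. These 4 peaks were named for the smallest unadjusted p of the list, a choice that favours values without overlap.

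IGF, Akt and mTOR genes had 29 peaks on 23 genes with a median of 0.08. RNA of 2 of these genes rose and of 1 fell, against 7.01% and 9.96% of all tested genes. Foxo1, a transcription factor held out of the nucleus by Akt, had folds of 24.5 and 20.3 in GM against 7.17 and 7.79 in 3d DM and RNA at 172 and 143 in GM against 309 and 555 in 3d DM, and the related Foxo3 had 11.7 and 17.6 in GM against 8.36 and 5.26 in 3d DM. Trib3, a pseudokinase, was at 1.02, and Deptor, an inhibitor of mTOR, was at 1.06 at a peak with bases shared by 63 gene names. Notch, Wnt and TGF-beta genes had 38 peaks on 29 genes with a median of -0.23, or -0.063 without 3d DM replicate 2, 13 higher and 25 lower. RNA of 2 of these genes rose and of 0 fell, against the same 7.01% and 9.96%. Axin1, a scaffold of beta-catenin destruction, had folds of 13.1 and 8.29 in GM against 5.17 and 4.84 in 3d DM, the Wnt coreceptor Lrp6 had 9.04 and 7.2 in GM against 3.66 and 4.73 in 3d DM, and the Notch target Hes1 had 1.84 and 1.9 in GM against 2.58 and 2.46 in 3d DM. Bmp4, above, was the largest value of that list.

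Early response transcription factors had 29 peaks on 27 genes, a median of -0.13, 9 higher and 20 lower. RNA of 2 of these genes rose and of 2 fell, against 7.01% and 9.96% of all tested genes. Myc, a driver of growth, had folds of 18.7 and 17.2 in GM against 9.52 and 5.01 in 3d DM and RNA at 357 and 955 in GM against 169.5 and 275 in 3d DM, so that both enrichment and RNA were lower in 3d DM. Maf had folds of 12.2 and 8.61 in GM against 4.84 and 4.11 in 3d DM, Klf7 had 20.3 and 14.1 in GM against 7.72 and 7.93 in 3d DM and Atf4, the factor of the integrated stress response, had 3.13 and 1.97 in GM against 2.91 and 3.6 in 3d DM. Microtubule and kinesin genes had 66 peaks on 28 genes with a median of -0.07, 23 higher and 43 lower. RNA of 2 of these genes rose and of 2 fell, against the same 7.01% and 9.96%. Map1a, a microtubule-associated protein, had folds of 30.6 and 7.24 in GM against 4.34 and 4.04 in 3d DM, Camsap2, which caps minus ends, had 4.75 and 3.24 in GM against 5.68 and 18.4 in 3d DM, Macf1, a crosslinker of actin and microtubules, was at -1.14 and Tubb3, a neuronal beta-tubulin, was at 0.57.

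Extracellular matrix and adhesion genes had 49 peaks on 30 genes, of which RNA of 10 rose and of 2 fell, with a median enrichment difference of -0.06, 21 higher and 28 lower. Col1a1, the main fibrillar collagen, had folds of 7.44 and 8.74 in GM against 5.03 and 3.83 in 3d DM while its RNA went from 137 and 152 in GM to 1155 and 1533 in 3d DM. Col12a1 had a peak at -1.21, Col5a1 at -0.37, and Tnc, the matrix glycoprotein tenascin C, had folds of 2.87 and 1.72 in GM against 6.35 and 3.13 in 3d DM. Among the families, 156 peaks on 117 Zfp genes had a median of -0.10. Of these, 21 (13.5%) lay above and 33 (21.2%) below both GM values, against 16.4% and 15.7% of all peaks. Zfp652 alone had peaks at -1.39 and 1.31. The 38 peaks on 29 Zbtb, Zscan and Zkscan genes had a median of -0.06, the 7 on 4 protocadherin genes -0.30, and the 59 on 50 solute carrier genes 0.09. RNA rose at 6 and fell at 3 of the Zfp genes, rose at 1 of the Zbtb group, passed in 0 of the protocadherins, and rose at 1 and fell at 4 of the solute carriers. Over all tested genes, 7.01% rose and 9.96% fell.

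In those families the named members were Zbtb38 at 1.01, Zbtb4 at -1.35 with folds of 50.7 and 12.9 in GM against 7.21 and 12 in 3d DM, Zbtb8os at -0.78 and Zscan26 at -0.79. Pcdh7, a protocadherin, had peaks at -1.37 and -0.73. Pcdh1 was at -0.30, and the peak of Pcdhgc3 at -0.37 carried the names of 23 genes that share its exons. Without GM replicate 1 Zbtb8os was at 0.084, and without 3d DM replicate 2 Pcdh1 was at 0.29. The zinc transporter Slc39a13 was at -0.63, the nucleotide sugar transporter Slc35b2 at 0.63, Slc35e1 at 1.31 and the mitochondrial phosphate carrier Slc25a3 at 0.48. The values of Slc35e1 overlapped between states because only the second 3d DM list was high, at 40.9.

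**Figure D5:**
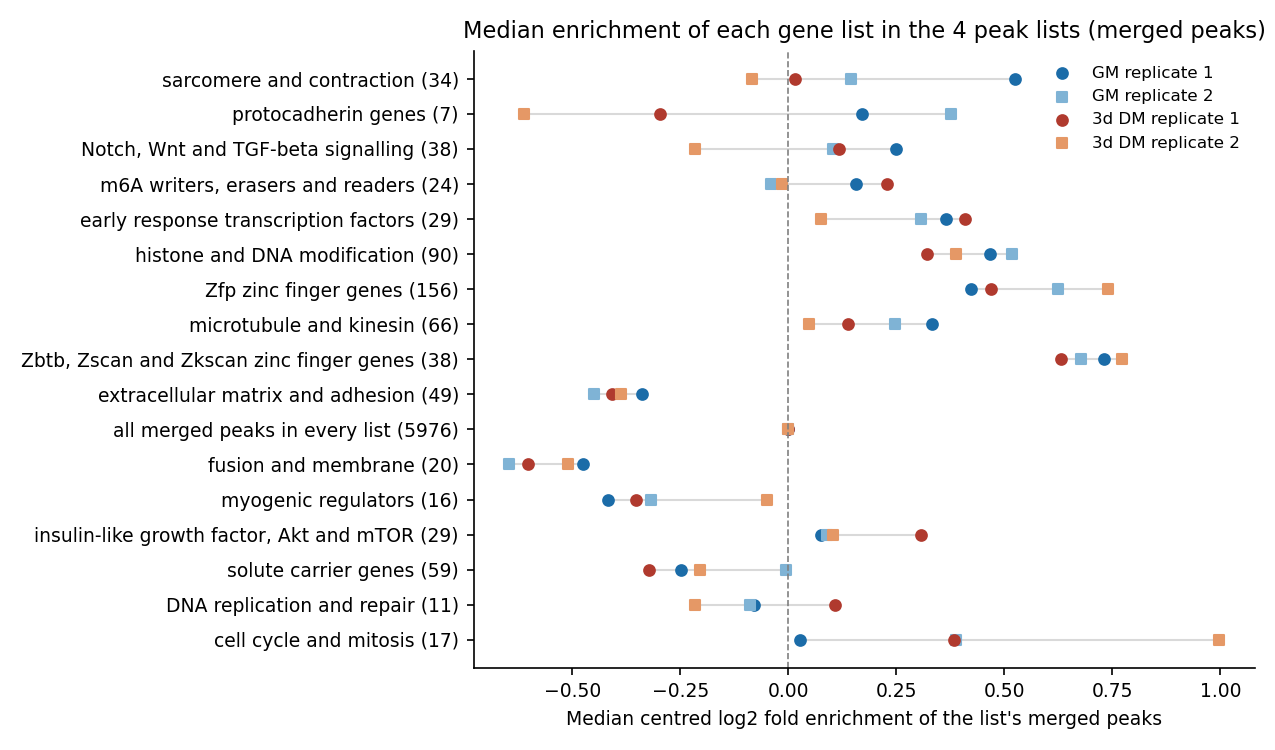
Median centred log2 fold enrichment of each gene list (horizontal axis) in the 2 GM lists (blue) and the 2 3d DM lists (red and orange), with the number of merged peaks in brackets and the lists ordered by their difference between states. Sarcomere genes stand at the top with medians of 0.52 and 0.14 in GM against 0.02 and -0.08 in 3d DM, and cell cycle genes at the bottom with 0.03 and 0.39 against 0.38 and 1.00.

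Many transcripts carried several kept peaks, which allowed peaks of one RNA to be compared. There were 1013 genes with at least 2, holding 2317 peaks, and Dst, a cytoskeletal linker, held the most with 11. Peaks of one gene share its input and its library, so they are not independent. All peaks of a gene were higher in 3d DM at 217 genes, all lower at 245, and they were divided at 551. Of the 808 genes with exactly 2 kept peaks, 383 were divided. Of all kept peaks 3003 were higher and 2973 lower, so 2 peaks of unrelated sign would be divided about as often as not. The median SE of a peak was 0.45, and no difference between peaks of a gene was tested. Kmt2d had 7 peaks between -1.53 and 0.54, Ice1 had 4 between -2.06 and 0.69, Nsd1 had 5 between -0.41 and 1.51, and Chd3, a chromatin remodeller, had 5 that were all higher, between 0.05 and 1.03.

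Position along the transcript went with small differences. By the region labels of the lists, 2095 peaks (35.1%) lay in coding sequence, 2087 (34.9%) spanned coding sequence and 3′ UTR, 1459 (24.4%) lay in the 3′ UTR and 335 (5.61%) touched the 5′ UTR. Median differences were -0.01, -0.02, 0.09 and -0.10. In the 3′ UTR, 304 peaks (20.8%) lay above both GM values and 194 (13.3%) below, and of those touching the 5′ UTR 32 (9.55%) lay above and 63 (18.8%) below, against 16.4% and 15.7% of all. When peaks were placed by their midpoint on the annotated transcript, the 2406 with a midpoint in the 3′ UTR had a median of 0.04 and the 78 in the 5′ UTR -0.14. These medians are far smaller than the error of a single peak.

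The letters around the peaks were searched on the strand of the transcript for GGACT and for GGAC, which GGACT contains, and for their reverse complements AGTCC and GTCC as a measure of what base composition alone gives. Of 5717 windows of 101 bases around the middle of a kept peak, 15.9% held GGACT and 8.83% held AGTCC. In 137888 windows of that length on the same transcripts, at least 500 bases from the middle of every kept peak, the shares were 9.53% and 9.11%. For GGAC and GTCC they were 44.0% and 24.9% at peaks and 32.3% and 28.7% elsewhere. Kept peaks thus carried the motif more often than the rest of their transcripts on the sense strand and no more often on the other.

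The motif did not set apart the peaks that differed between states by much. GGACT was in 17.7% of the windows of peaks below both GM values, in 15.1% of those above both and in 15.7% of those that overlapped. Peaks with GGACT had a median difference of -0.05 (n = 908) and those without 0.02 (n = 4809). Base composition went with direction, since the windows held 53.3% G and C at peaks that were lower without overlap, 48.3% at those that were higher and 51.1% at those that overlapped. Its part in the differences was not tested.

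Shared sequence was more common under the peaks with large upward differences. A run of 20 bases found in transcripts of at least 10 gene names was in 355 windows (6.21% of all), in 26 of 189 windows (13.8%) of peaks that were higher by more than 1 log2 and in 10 of 153 (6.54%) of those that were lower by more than 1. Besides, 192 of the 5976 kept peaks spanned ground that a kept peak on the other strand also spanned, such as Mybph with Adora1 and Tnnc2 with Ube2c. For these peaks the reads of 2 genes may have been counted together, and their part in the differences was not tested.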

How the data were processed

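MeRIP-seq and RNA-seq of C2C12 cells in GM and 3d DM were analysed from processed files, grouped by the labels, with every library used. Reads had been aligned to mm10 by the authors with HISAT2 (2.1.0), and exomePeak had been run on each immunoprecipitated library with its own input. For every peak, the lists deposited by the authors give a fold, which is a ratio of immunoprecipitated to input RNA rounded to 3 significant digits, and a p-value. The expression table deposited by the authors holds a normalised signal per gene, which its name ties to TMM and the processing notes to edgeR. The counting tool is not given in the sources used here. Its values are not whole reads, so depth is unknown in both kinds of file.

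Lines sharing at least 1 base of exon on one strand were merged, each list was centred on its median, and the states were compared with limma (3.58.1, under R 4.3.3), using a trend on intensity and Benjamini-Hochberg adjusted p-values with a threshold of 0.05. RNA was tested on log2(value + 1) in 11406 genes that reached 25.1, which is 2 cpm of a library's sum, in 2 or more libraries. Such a fold understates the change of low genes. Of 5976 peaks, 5956 were matched to the table through the Entrez identifiers of GENCODE M21 and RefSeq. The fits were checked on simulated data. Alternatives were other values per list, centrings, merges and filters, pseudocounts of 0.1 and 4, rescaling, the replicate number as a block, and each replicate left out in turn. Peaks were named by a rule, which takes the 12 largest differences without overlap in each direction, at most 1 per gene, and up to 4 peaks of each gene list by the smallest unadjusted p. No gene passed both tests, so the part of the rule on such genes named none. A peak on 1 gene is not reported here. Other names were chosen after their values were seen. The gene lists covered sarcomere and contraction, cell cycle and mitosis, DNA replication and repair, myogenic regulators, fusion and membrane, the m6A machinery, histone and DNA modification, IGF, Akt and mTOR, Notch, Wnt and TGF-beta, early response factors, microtubules and kinesins, extracellular matrix, and the Zfp, Zbtb, protocadherin and solute carrier families. Peaks, lists and rule were chosen with earlier results of these data known. Scripts ran in Python 3.11.15 with pandas 2.3.3, numpy 2.4.6, scipy 1.17.1 and matplotlib 3.10.9.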

Additional observations from a re-analysis of the deposited data

How the results depend on the processing

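With 2 lists a state the median half-width of a 95% interval was 1.00 log2, and the lists give no read depth. The count of peaks past the adjusted threshold was 0 in both directions under all 11 alternatives that kept every list, and leaving out each replicate in turn gave 0 to 2 higher and 0 to 8 lower. With the replicate number as a block, 0 peaks passed, with 234 higher and 149 lower at an unadjusted p under 0.05, and RNA of 150 genes with a kept peak rose and of 148 fell. The labels name no batch behind that number, and the r of same-numbered deviations was 0.13 for enrichment and 0.29 for RNA over only 2 pairs. RNA rose at 567 and fell at 435 of these genes after median-of-ratios rescaling, rose at 0 and fell at 2 (Dlx3 and Slc15a3) without a filter, and rose at 25 to 152 and fell at 11 to 130 without each replicate in turn. Without centring, 9.22% of peaks lay above both GM values and 21.7% below.

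Values without each replicate for gene lists and regions, and all alternatives for the RNA classes, were added after seeing the data. The median where RNA rose ran from -0.37 to -0.17 and where RNA fell from 0.13 to 0.38, with no value for the first without a filter, since no gene rose. Without each replicate in turn, list medians ran from -0.51 to -0.17 for sarcomere, 0.10 to 0.69 for cell cycle, 0.025 to 0.34 for DNA replication, -0.15 to 0.10 for fusion, -0.22 to -0.044 for histone and DNA modification, -0.083 to 0.18 for IGF, Akt and mTOR, -0.19 to 0.046 for microtubule, -0.12 to 0.010 for extracellular matrix, -0.20 to 0.072 for Zfp, -0.23 to 0.014 for Zbtb and -0.54 to -0.080 for protocadherin genes, and from -0.052 to 0.12 for myogenic regulators, -0.21 to -0.085 for the m6A machinery, -0.26 to -0.063 for Notch, Wnt and TGF-beta, -0.23 to -0.073 for early response factors and 0.031 to 0.21 for solute carriers. Region medians ran from -0.22 to -0.027 at the 5′ UTR, -0.089 to 0.033 in coding sequence, -0.046 to 0.022 across coding sequence and 3′ UTR, and 0.046 to 0.14 in the 3′ UTR, and by midpoint the last 2 were 0.029 and 0.038. With 1 mean per gene the sarcomere median was -0.58. All 328 alternative values of the 24 peaks of largest difference kept their direction, and Cnp was at -2.81 without GM replicate 2. This was in part fixed in advance. The 24 peaks were chosen for values that did not overlap between states, so leaving out 1 list could not turn their direction. The fits without the intensity trend and with the replicate number as a block give the same differences. Their size moved by over 1.5 times under an alternative that kept every list at 6 of the 24 and without a replicate at 7, and Eef2k moved most, from 2.07 to 0.40 when merging needed a larger overlap. The sign was reversed at 5 other named peaks. Without each replicate in turn these ran from -0.066 to 1.34 for Smarcd3, -2.05 to 0.23 for Vgll2, -1.64 to 0.084 for Zbtb8os and -0.89 to 0.29 for Pcdh1, and with the median over the lines of a list Pcdh1 was at 0.023 and Atf4 at -0.031. The cause was not tested.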
